A study of Mus musculus with 4 samples.

Results

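The cells described here are CD8 T cells of a mouse melanoma that carried RNA of granzymes C, D, E, F and G, called granzyme C to G cells below. A cell was taken when it held at least 1 UMI (a unique molecular identifier, which counts an original RNA molecule once) of Cd3d, Cd3e or Cd3g, at least 1 UMI of Cd8a or Cd8b1, no UMI of Cd4 or Foxp3, fewer than 3 UMIs of the division genes Mki67 and Top2a together, and at least 3 UMIs of Gzmc, Gzmd, Gzme, Gzmf and Gzmg together. These conditions chose 522 cells of 25954 kept cells, and 522 of the 4987 CD8 T cells that met every condition except the granzyme one. The levels of the 14 genes in these conditions are therefore given as a description, with no test.

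The cells came from C57BL/6 mice with subcutaneous B16-GP33 tumours, a B16 melanoma line carrying the GP33 epitope of lymphocytic choriomeningitis virus, dissected on day 18. Mice received 200 ug of control IgG, of anti-PD-1, of anti-PSGL-1, or 200 ug of each of both blocking antibodies (the combination) on days 8, 10 and 12. Live CD45.2+ cells, which excluded propidium iodide, were sorted and captured on the 10x Genomics Chromium platform, with 1 library per treatment. The sources used here do not state how many mice stand behind a library, nor their age. With 1 library per treatment no difference between treatments could be tested, and the intervals below cover counting error only. In lists of 4 values IgG comes first, then anti-PD-1, then anti-PSGL-1, and the combination last.

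Granzymes are serine proteases stored in the cytotoxic granules of killer lymphocytes. Perforin, encoded by Prf1, lets them into the target cell. Granzymes A and B are the best studied, whereas granzymes C to G are rodent genes that lie in tandem with Gzmb on mouse chromosome 14 and are known from strongly activated cytotoxic T cells and from NK cells. Serpins are protease inhibitors, and several of the Serpinb9 family block granzymes, which is thought to protect the killer cell from its own proteases.

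In the GRCm38 annotation the 5 genes lie on the minus strand of chromosome 14, Gzme at 56117626 to 56120625, Gzmd at 56129556 to 56132608, Gzmg at 56156582 to 56159579, Gzmf at 56205263 to 56211417 and Gzmc at 56231441 to 56234656. Gzmb follows at 56258838 to 56262260. The promoters of the 5 genes are shown, each from 250 bases before to 50 bases after the start site. The sequences are those of RefSeq on GRCm38.p6 and read 5′ to 3′ on the gene's own strand. The windows, all on the minus strand, are chr14:56234608-56234907 for Gzmc, chr14:56132544-56132843 for Gzmd, chr14:56120576-56120875 for Gzme, chr14:56211358-56211657 for Gzmf and chr14:56159530-56159829 for Gzmg, with chr14:56262285-56262584 for Gzmb as the neighbour outside the group. Capitals mark the 5 runs of at least 12 bases that all 5 promoters share.
Gzmc: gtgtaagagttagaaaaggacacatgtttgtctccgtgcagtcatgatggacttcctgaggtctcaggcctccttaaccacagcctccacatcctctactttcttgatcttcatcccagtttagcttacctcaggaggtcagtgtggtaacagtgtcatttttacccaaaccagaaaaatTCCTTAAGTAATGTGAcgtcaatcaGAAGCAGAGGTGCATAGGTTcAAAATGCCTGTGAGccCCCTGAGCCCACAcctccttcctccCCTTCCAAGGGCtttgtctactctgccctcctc
Gzmd: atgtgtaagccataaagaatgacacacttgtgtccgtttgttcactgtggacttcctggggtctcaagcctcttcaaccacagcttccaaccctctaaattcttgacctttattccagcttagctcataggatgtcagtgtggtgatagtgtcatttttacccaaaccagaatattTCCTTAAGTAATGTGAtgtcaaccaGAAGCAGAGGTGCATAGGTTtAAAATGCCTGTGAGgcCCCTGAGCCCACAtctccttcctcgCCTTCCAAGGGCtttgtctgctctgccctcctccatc
Gzme: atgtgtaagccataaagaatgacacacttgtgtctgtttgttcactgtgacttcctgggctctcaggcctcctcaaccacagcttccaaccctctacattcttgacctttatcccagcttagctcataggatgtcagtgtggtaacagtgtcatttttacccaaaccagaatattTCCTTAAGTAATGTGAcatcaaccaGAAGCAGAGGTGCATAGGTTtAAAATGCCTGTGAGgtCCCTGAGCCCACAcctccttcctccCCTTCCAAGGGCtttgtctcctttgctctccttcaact
Gzmf: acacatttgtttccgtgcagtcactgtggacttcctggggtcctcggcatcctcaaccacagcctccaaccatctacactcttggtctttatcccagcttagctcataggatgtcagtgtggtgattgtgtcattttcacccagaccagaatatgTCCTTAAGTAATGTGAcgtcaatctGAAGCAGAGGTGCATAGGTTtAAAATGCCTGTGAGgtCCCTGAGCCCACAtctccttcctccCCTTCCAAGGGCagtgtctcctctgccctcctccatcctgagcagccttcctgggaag
Gzmg: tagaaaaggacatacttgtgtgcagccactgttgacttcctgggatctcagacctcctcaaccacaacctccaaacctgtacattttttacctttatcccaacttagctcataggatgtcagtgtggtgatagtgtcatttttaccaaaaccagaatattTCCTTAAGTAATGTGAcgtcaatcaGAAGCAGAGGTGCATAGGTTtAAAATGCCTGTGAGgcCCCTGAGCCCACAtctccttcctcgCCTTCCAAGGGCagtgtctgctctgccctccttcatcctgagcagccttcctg
Gzmb: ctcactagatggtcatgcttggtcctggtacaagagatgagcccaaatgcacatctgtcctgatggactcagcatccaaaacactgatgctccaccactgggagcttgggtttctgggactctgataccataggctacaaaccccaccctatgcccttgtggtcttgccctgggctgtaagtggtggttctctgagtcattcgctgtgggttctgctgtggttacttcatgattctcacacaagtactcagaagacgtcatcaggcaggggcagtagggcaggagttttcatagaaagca

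Identity was counted over aligned bases only, with gapped bases left out, which raises it. So counted, the 5 promoters were 87.4% to 94.0% identical to each other, and 64.8% to 76.3% identical to the Gzmb promoter. Gzmd and Gzme, 94.0% identical to each other, gave 76.3% and 64.8% against Gzmb, so the Gzmb values are rough. The longest shared runs, of 20 and 16 bases, began 45 and 70 bases before the Gzmc start site. The 8 bases that begin with the last letters of the 16-base run read TGACGTCA in Gzmc, Gzmf and Gzmg, TGATGTCA in Gzmd and TGACATCA in Gzme. The first of these is the cyclic AMP response element, and 1.79% of 32851 mouse promoters of the same length held it on either strand. This motif was added after the promoters had been seen. Among the other motifs searched on both strands, the RUNX motif TGTGGT occurred 2 times in each of the 5 promoters and 2 times in that of Gzmb, and 16.8% of all promoters held it. The AP-1 motif TGANTCA (7.81% of promoters), the NFAT motif GGAAAA (23.4%), the T-box motif AGGTGTGA (1.28%) and the interferon motif, GAAA and GAAA with 2 free bases between them (3.44%), had no match in the 5 windows. A TGACGTCA match is not a TGANTCA match, and the RUNX matches lay further from the start site than these 8 bases. The E-box CANNTG, held by 72.3% of promoters, occurred 1 time in Gzmc, Gzmd, Gzme and Gzmf and not in the Gzmg window. A match is a stretch of letters and was not tested as a binding site.

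Across the series 27270 barcodes carried 184611085 UMIs, and the kept cells had median depths of 3760, 6389.5, 6374 and 8543.5 UMIs. The IgG library stood apart. Of its 70 granzyme C to G cells, 36 carried 5 or more UMIs of 22 marker genes of macrophages and monocytes, neutrophils and dendritic cells, against 8 of 195, 1 of 34 and 10 of 223 in the other libraries. These 36 cells had a median depth of 2784 UMIs, against 7617.5 in the other IgG cells of the group. All 10 macrophage and monocyte markers were present in the IgG granzyme C to G cells, with a summed level of 1335 CPM (UMIs of a gene or list per 1000000 UMIs of the summed cells), against 323 to 788 CPM in the other libraries. Neutrophil markers summed to 406 CPM in IgG and to 2.53 to 3.32 CPM elsewhere, and dendritic cell markers to 103 CPM and 5.43 to 10.1 CPM. CD8 T cells with no granzyme C to G UMI carried myeloid RNA too. Of these, 464 of 1576, 46 of 553, 102 of 1081 and 45 of 892 held 5 or more UMIs of the 22 marker genes. Their macrophage and monocyte markers summed to 1689, 1074, 1027 and 812 CPM, above the granzyme C to G cells in each library. With IgG their neutrophil markers summed to 253 CPM and their dendritic cell markers to 110 CPM. The share, the gene counts and the ratios to IgG between treatments are therefore also given without the cells that carried myeloid markers, an option added after the data were seen. The source of the myeloid RNA was not tested.

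The label of CD8 T cells was checked against marker genes. Cd8a, which the rule used, was at 581, 772, 773 and 883 CPM. Cd40lg of helper T cells and Sox13 of gamma-delta T cells had no UMI in any of the 522 cells. NK cell markers summed to 150, 28.9, 63.3 and 33.8 CPM, and Ncr1, the NKp46 receptor, had 3, 5, 0 and 2 UMIs. Of the other genes of the conventional CD4 and regulatory T cell list, Il2ra, Tnfrsf4 and Ikzf4 were detected. Cd4 and Foxp3 were at 0 because the rule required it and check nothing. No barcode of these cells was shared between libraries, and 5 to 13 kept barcodes were shared by each pair of libraries.

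Granzyme C to G cells were a larger share of CD8 T cells in both libraries that had received anti-PD-1 than in those without it. They numbered 70 of 1725 CD8 T cells with IgG, which is 4.06% (95% Clopper-Pearson interval 3.18% to 5.10%). With anti-PD-1 they were 195 of 863, or 22.6% (19.8% to 25.5%). With anti-PSGL-1 they were 34 of 1159, or 2.93% (2.04% to 4.08%), and with the combination 223 of 1240, or 18.0% (15.9% to 20.2%). The intervals of both libraries with anti-PD-1 overlapped each other and lay above those of the remaining ones. As shares of all kept cells the values were 0.740%, 3.72%, 0.495% and 5.09%.

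Depth differed between the libraries, so each cell was also thinned to 2000 UMIs and counted as positive with at least 1 granzyme C to G UMI. The thinned shares were 6.65% (5.48% to 7.99%), 25.4% (22.5% to 28.5%), 3.87% (2.83% to 5.16%) and 18.9% (16.7% to 21.2%), after leaving out 132, 20, 23 and 21 shallower cells. The libraries with anti-PD-1 again stood above the others. Macrophages, which should lack these RNAs, gave thinned shares of 0.186%, 2.55%, 0.323% and 1.32%, so the background was higher in the libraries with more granzyme RNA and stayed below the CD8 T cell share in each library. Their median depths before thinning were 5320, 7006.5, 7492 and 8542 UMIs. Without the cells carrying myeloid markers the IgG share was 2.89% and the anti-PD-1 share 23.4%.

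**Figure D1:**
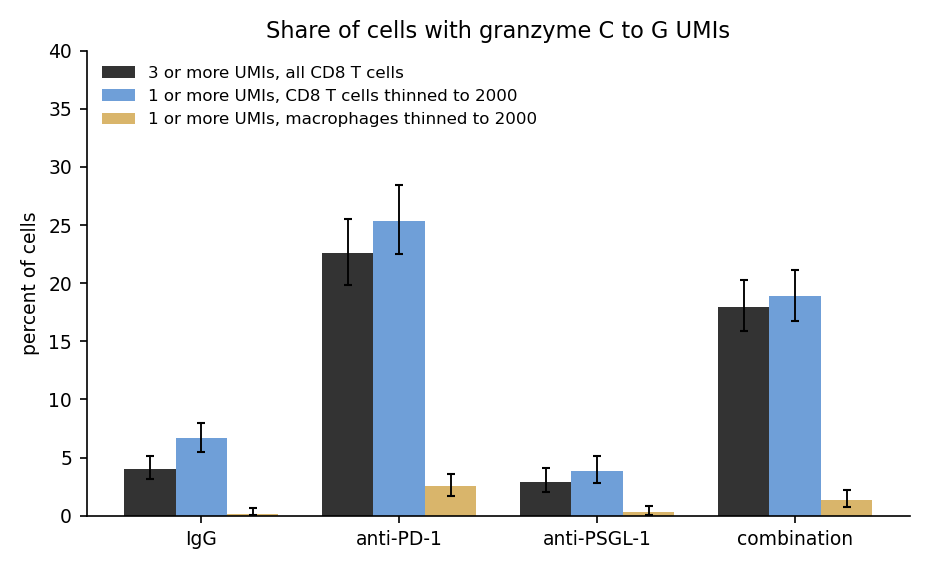
Share of cells (percent) with granzyme C to G UMIs in each library: black bars, 3 or more UMIs in CD8 T cells; blue bars, 1 or more UMIs after thinning to 2000 UMIs; sand bars, the same in macrophages. Error bars are 95% Clopper-Pearson intervals, and the CD8 T cell bars of both libraries with anti-PD-1 stand at 18.0% to 25.4%, above 2.93% to 6.65% in the other libraries.

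Within the group the amount of granzyme RNA per cell spread widely. The lowest, median and highest sums of the 5 genes were 3, 13 and 135 UMIs in the IgG cells. They were 3, 42 and 2031 after anti-PD-1, 3, 19.5 and 477 after anti-PSGL-1, and 3, 41 and 2678 after both antibodies. Sums of 100 or more were found in 5, 66, 4 and 72 cells. Just inside the threshold, at 3 UMIs, lay 11, 7, 1 and 17 cells, and just outside it, at 2 UMIs, 16, 30, 5 and 29 CD8 T cells. A few cells held much of the RNA: the 5 richest cells carried 33.4%, 22.2%, 57.8% and 25.3% of the granzyme UMIs of their library's group. The cells of the group were deeper than other CD8 T cells in every library, with median UMI counts of 4335.5, 12459, 10369.5 and 13929 against 3778.5, 6435, 6295 and 6870 in CD8 T cells with no granzyme C to G UMI. Their median mitochondrial shares were 2.14%, 2.53%, 2.31% and 2.12%.

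**Figure D2:**
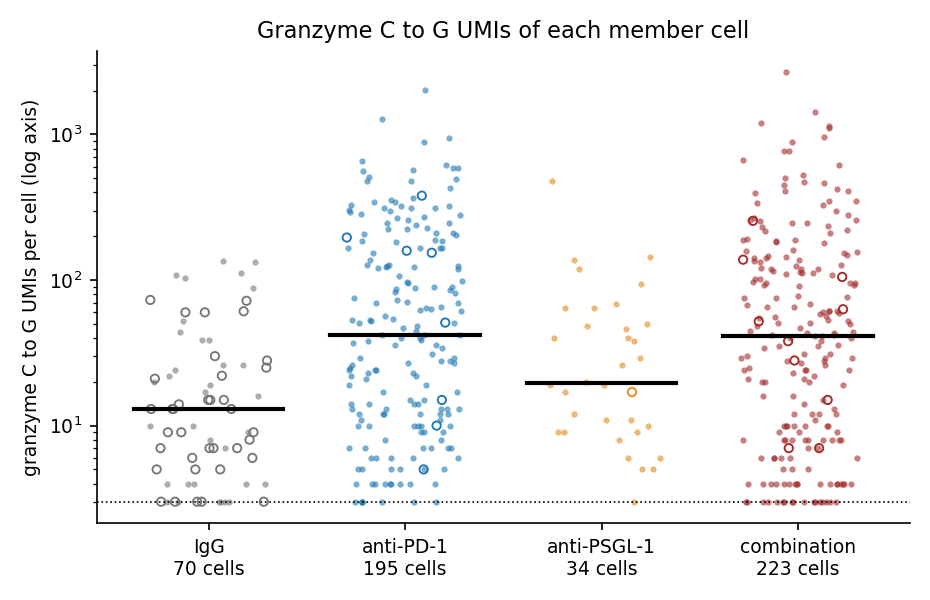
Granzyme C to G UMIs of each chosen cell (log axis), by library, with 70, 195, 34 and 223 cells. Black lines are medians (13, 42, 19.5 and 41), the dotted line is the threshold of 3, and open circles are cells with 5 or more myeloid marker UMIs, which make up 36 of the 70 IgG cells.

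The mix of the 5 granzymes differed between libraries. Values are CPM of the UMIs summed over the group's cells in 1 library, from 406102, 2556961, 394757 and 3315379 UMIs in all. Gzmf was at 1354, 4393, 1857 and 4228 CPM and was detected in 81.4%, 80.0%, 79.4% and 83.4% of the cells. Its level was higher in both libraries with anti-PD-1, while the shares of cells with it lay between 79.4% and 83.4%. Gzmc was at 1369, 2809, 1284 and 1876 CPM, highest with anti-PD-1, and in 75.7%, 82.6%, 70.6% and 78.5% of the cells. Gzmd was at 749, 1450, 580 and 1224 CPM and Gzme at 894, 1241, 532 and 1100 CPM, and both were lowest with anti-PSGL-1. Because the rule selects on the sum of these genes, the levels are a description.

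Gzmg stood apart from the other members. It had 1, 902, 3 and 1901 UMIs, which is 2.46, 353, 7.6 and 573 CPM, in 1, 22, 2 and 24 cells. One cell held 434 of the 902 UMIs with anti-PD-1, and one held 770 of the 1901 with the combination. Gzmn, the remaining gene of this block, had 0, 1, 0 and 2 UMIs. All 5 of the summed genes were detected together in 0, 22, 1 and 21 cells, and only 1 of the 5 in 15, 43, 8 and 58 cells. Of the UMIs of the 5 genes, Gzmf made up 31.0%, 42.9%, 43.6% and 47.0% and Gzmc 31.3%, 27.4%, 30.1% and 20.8%. The transcripts are of similar length, 894 bases for Gzmc and 919 for Gzmf, and the levels are not corrected for it. Gzmd and Gzme transcripts were 95.1% identical over aligned bases with gaps left out, the closest pair. Of all stretches of 90 bases, at most 2.17% in any member's transcript also occurred in another granzyme, and none of those in its last 300 bases did. The read length is not given in the sources used here.

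**Figure D3:**
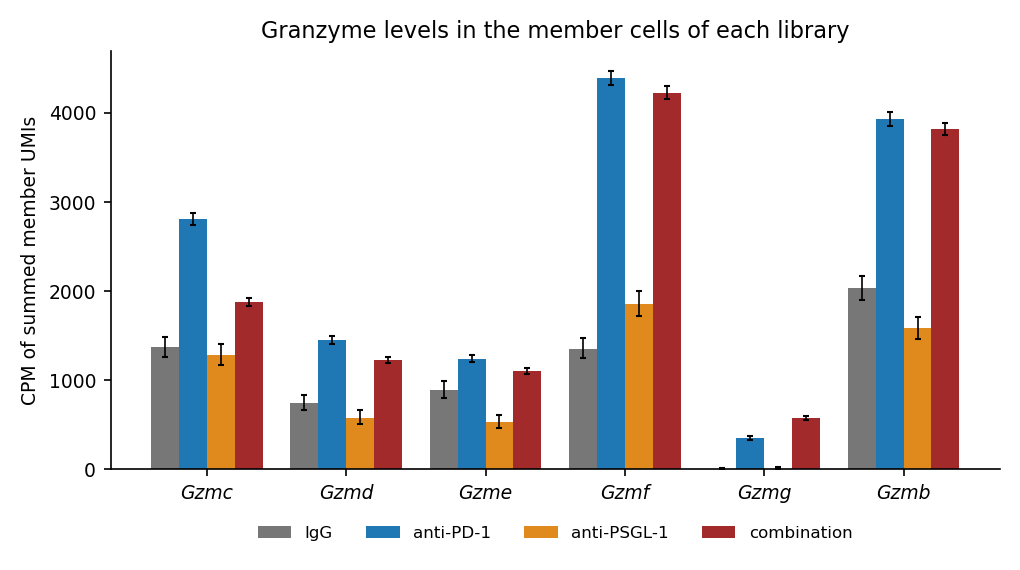
Levels (CPM of summed UMIs) of the 5 granzymes of the rule and of Gzmb in granzyme C to G cells of each library, with 95% Poisson intervals. Gzmf, at 4393 and 4228 CPM with anti-PD-1 and the combination, and Gzmb, at 3936 and 3817 CPM, were each higher there than in the other libraries, and Gzmg was near 0 without anti-PD-1.

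The granzyme C to G cells were then compared with CD8 T cells of the same gate that had no granzyme C to G UMI (1576, 553, 1081 and 892 cells). Raw UMIs were summed per library and cell set, and edgeR's quasi-likelihood test was fitted with the library as a block, so that each library gave 1 difference. The spread over the 4 libraries includes their treatments. The genes of the rule were not tested. Of 9587 genes, 849 were higher in granzyme C to G cells (8.86%) and 1106 lower (11.5%) at a Benjamini-Hochberg adjusted p under 0.05, and 748 and 945 of these had the same direction in all 4 libraries. Because the compared cells were shallower, the counts were also taken from cells of 5000 to 20000 UMIs, which gave 363 higher and 616 lower. Leaving out the combination library left 311 and 514, and leaving out anti-PD-1 left 411 and 600. Without IgG there were 881 and 1183, and without the cells carrying myeloid markers 835 and 1059. Of the genes given below as higher or lower, the calls of Serpinb1a, Icos, Xcl1, Tbx21, Tox, Il10, Mthfd2 and Isg15 were lost without the combination library, and those of Cd101 and Tyms without anti-PD-1. Without anti-PD-1 the calls of Serpinb1a, Icos, Xcl1, Tox, Mthfd2 and Isg15 were lost as well, without IgG that of Icos and without anti-PSGL-1 that of Isg15. In cells of 5000 to 20000 UMIs Serpinb1a, Icos, Tox, Mthfd2 and Tyms did not pass.

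Several serpins were higher in the granzyme C to G cells. Of 9 tested serpins, 5 were higher and 1 lower, with a median log2 fold change of 0.87 against -0.01 over all genes tested. Serpinb9b, a granzyme inhibitor of the Serpinb9 family on chromosome 13 at 33027416 to 33041884, was at 227, 269, 621 and 656 CPM in granzyme C to G cells and at 23.8, 31.9, 16.8 and 48.1 CPM in the granzyme-negative cells. All 4 libraries had the higher level in the granzyme C to G cells, with a log2 fold change of 3.86 (SE 0.25, adjusted p = 2.9e-07). Serpinb9, which inhibits granzyme B, was at 379, 481, 567 and 521 CPM against 208, 318, 275 and 342 CPM, a log2 fold change of 0.79 (SE 0.08, adjusted p = 2.5e-05). Serpinb6a was higher with a log2 fold change of 1.20 and Serpinb6b with 0.87, and Serpinb1a, an inhibitor of neutrophil proteases, was lower with -0.88. Serpine2 (protease nexin 1) had been named as a marker of these cells beforehand, so its log2 fold change of 1.68 is a description. The Serpinb9b difference rests on part of the cells: it had UMIs in 24, 71, 18 and 127 of them, and 1 cell held 40.4% of its UMIs with anti-PSGL-1.

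The other granule genes did not move one way. Of 18 tested, 5 were higher and 4 lower, with a median log2 fold change of 0.07. Gzmb, at 2032, 3936, 1583 and 3817 CPM against 587, 1317, 757 and 1881 CPM, was higher in each library (log2 fold change 1.39, SE 0.10, adjusted p = 8.6e-07). Prf1, perforin, was at 515, 674, 400 and 756 CPM against 117, 309, 125 and 319 CPM and also higher in each (1.53, SE 0.13). Cst7, the granule protease inhibitor cystatin F, had a log2 fold change of 0.80 and Ctsd, cathepsin D, of 0.57. In the other direction, Gzmk was at 54.2, 38.7, 38 and 76.3 CPM against 122, 115, 133 and 246 CPM, lower in every library (-1.56, SE 0.10). Lamp1, a protein of the granule membrane, was lower with -1.35, and Gzmm with -1.83. Gzma was lower with -1.95 (SE 0.34), but 1 cell held 68.8%, 60.0% and 43.8% of its UMIs with IgG, anti-PD-1 and the combination. None was found with anti-PSGL-1. With IgG 5 of 70 cells had it, and its level was near the 207 CPM of the granzyme-negative cells.

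Cytokine and chemokine genes divided. Of 18 tested, 7 were higher and 3 lower, with a median log2 fold change of 0.54. Spp1, osteopontin, was at 593, 791, 778 and 1522 CPM against 135, 238, 135 and 369 CPM, higher in all 4 libraries (2.12, SE 0.10, adjusted p = 5.1e-08). Macrophages also express Spp1, and without the cells carrying myeloid markers its log2 fold change was 2.43. In the IgG cells 46.5% of its UMIs were in 1 cell. Areg, the growth factor amphiregulin, was at 544, 530, 76.0 and 454 CPM against 142, 161, 32.2 and 199 CPM (1.58, SE 0.11), with the anti-PSGL-1 level resting on 4 cells. Csf1 was higher by 0.70, and Csf2, which encodes GM-CSF, by 3.00 from a low level of 9.85, 28.5, 12.7 and 6.64 CPM. Ccl5, a chemokine of memory and effector CD8 T cells, was lower: 2999, 2768, 4195 and 4089 CPM against 5714, 8946, 7324 and 13827 CPM (-1.27, SE 0.12). Xcl1, a chemokine that attracts cross-presenting dendritic cells, was lower by -1.15, and Il10 by -1.73. Ifng, interferon gamma, did not pass the test (log2 fold change 0.60, adjusted p = 0.23).

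Among transcription factors 6 of 24 were higher and 7 lower, with a median of -0.12. Irf8, at 721, 768, 856 and 834 CPM against 257, 396, 223 and 290 CPM, was higher in each library (1.5, SE 0.12). Epas1, the hypoxia-inducible factor HIF-2 alpha, was at 71.4, 49.7, 101 and 35.3 CPM against 17.3, 18.9, 31.6 and 17.3 CPM (1.48, SE 0.16). Id2, a regulator of effector differentiation, was higher by 0.58 and Tbx21, encoding T-bet, by 0.53. Maf was at 14.8, 10.6, 17.7 and 10.9 CPM against 64.1, 45.6, 77.8 and 51.5 CPM, lower in each library (-2.13, SE 0.14). Eomes was lower by -1.28 and Tox2 by -3.77, from at most 11.7 CPM in the compared cells. Tox, a factor of exhausted T cells, differed by less: 204, 133, 162 and 185 CPM against 203, 203, 200 and 252 CPM, lower in 3 of 4 libraries (-0.34, adjusted p = 0.025).

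Genes of naive and progenitor T cells were lower: 15 of 17 tested were lower and none higher, with a median log2 fold change of -1.49. S1pr1, the receptor that lets lymphocytes leave tissue, was at 7.39, 0.782, 0 and 1.51 CPM against 78.1, 31.4, 54.9 and 33.3 CPM (-4.54, SE 0.28). Tcf7, which encodes the progenitor factor TCF1, was at 19.7, 0, 10.1 and 5.43 CPM against 82.8, 36.9, 61.2 and 22.9 CPM (-2.85, SE 0.38). Both were lower in every library. Klf3 had -4.04, Slamf6 -3.28, Lef1 -1.94, Klf2 -1.49 and Satb1 -1.46. The granzyme-negative cells include every CD8 T cell of the gate, naive-like ones too.

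Genes induced by type I interferon were lower as well, 15 of 20 tested with none higher and a median of -1.04. Ifi27l2a was at 438, 363, 248 and 252 CPM against 660, 1251, 925 and 835 CPM (-1.49, SE 0.15). Rtp4 was at 22.2, 12.5, 5.07 and 19.9 CPM against 43.2, 71.5, 35.2 and 58.8 CPM (-1.86, SE 0.20). Both were lower in all 4 libraries. Isg15 and Irf7 were lower in 3 of 4, and Isg15 was at 227 CPM against 175 CPM with IgG.

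Glycolysis genes were higher in part. Of 26 glycolysis and hypoxia genes 12 were higher and none lower (median 0.37). The glucose transporter gene Slc2a3 was at 93.6, 144, 101 and 99.8 CPM against 38.4, 58.8, 43.6 and 41.6 CPM (1.30, SE 0.09), and Hilpda, a lipid droplet protein induced by hypoxia, at 524, 604, 535 and 598 CPM against 263, 363, 274 and 322 CPM (0.92, SE 0.07). Gapdh was higher by 0.42 and Aldoa by 0.51. In cells of 5000 to 20000 UMIs 9 of the 26 were higher. Gldc, the glycine decarboxylase named as a marker of these cells, was at 167, 184, 155 and 239 CPM against 46.4, 74.2, 45.2 and 80.6 CPM, given as a description. Of the other 12 tested glycine, serine and one-carbon genes, Mthfd2 (0.37) and Tyms (0.77) were higher. Of 38 nuclear genes of oxidative phosphorylation 9 were higher and 1 lower (median 0.17), and of 25 cell division genes 13 were higher and 1 lower (median 0.40). In cells of 5000 to 20000 UMIs these became 1 higher and 1 lower for both lists.

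Surface receptors showed a mixed picture. Inhibitory receptors had 4 of 17 higher and 2 lower, with a median of -0.10. Havcr2, which encodes TIM-3, was at 143, 209, 162 and 202 CPM against 86.8, 116, 97.8 and 119 CPM (0.81, SE 0.08). Pdcd1, the PD-1 gene, was at 473, 613, 509 and 661 CPM against 372, 523, 373 and 617 CPM, higher by 0.30 (SE 0.07), and Cd244 by 0.99. Cd101 was lower by -1.14, and Lag3 (0.14, adjusted p = 0.41), Ctla4 (0.06, adjusted p = 0.65) and Tigit (-0.51, adjusted p = 0.15) did not pass. Of 11 costimulatory receptors 4 were higher, led by the tumour necrosis factor receptors Tnfrsf4 (OX40, 1.18), Tnfrsf9 (4-1BB, 0.79) and Tnfrsf18 (GITR, 0.51), and 3 were lower, among them Icos (-0.43). Of 15 killer cell receptors 8 were higher and 4 lower (median 0.31). Klre1 was at 227, 303, 253 and 414 CPM against 73.0, 213, 78.6 and 152 CPM (1.29, SE 0.16), and Klrd1, which encodes CD94, was higher by 0.93. Of the lower ones, Tyrobp and Fcgr3 are also expressed by myeloid cells, and the Tyrobp call was lost without the cells carrying myeloid markers.

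Of 20 homing and residence genes 9 were lower and 2 higher (median -0.22). Cxcr3, the receptor of interferon-induced chemokines, was at 7.39, 1.96, 2.53 and 4.22 CPM against 48.9, 30.9, 44.3 and 67.5 CPM, lower in each library (-3.81, SE 0.22). Cxcr4 was lower as well, and Itgb7 had -1.46, and Itgav, an integrin chain, was higher by 0.63. Of 24 cytokine receptor and signalling genes 6 were higher, among them Il2ra (the interleukin 2 receptor alpha chain, 1.36) and Il12rb2 (1.09), and 6 lower, among them Socs3 (-1.05) and Ifngr1 (-0.63). T cell receptor response genes had 7 of 18 lower and 1 higher (median -0.44), with Nfkbid at -1.51 and Nr4a1 at -0.62. Of 15 amino acid transport and stress genes 7 were lower and 1, Ddit4, higher (median -0.30), and of 18 dissociation stress genes 6 were lower and 2 higher (median -0.20). Cd69, an early activation and retention marker, was lower by -1.64 (SE 0.16).

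Among the differences ranked by size, several genes lay outside these lists. Ccdc184 was at 41.9, 66.5, 124 and 35.3 CPM against 9.0, 6.22, 11.7 and 5.62 CPM (3.01, SE 0.20). Gipc2 had a log2 fold change of 2.98, Exph5 of 2.81 and Igfbp7, a secreted binding protein, of 2.66. The metallothionein gene Mt2 was at 118, 221, 93.7 and 191 CPM against 30.3, 48.8, 29.9 and 43.7 CPM (2.07, SE 0.11), and Upp1, uridine phosphorylase, had 2.0, AA467197 2.0 and Il1r2, a decoy receptor of interleukin 1, 1.90, which was 2.92 without the cells carrying myeloid markers. Of the lower genes, Pmepa1, which is induced by TGF-beta, had -2.90, Cd7 -2.70, Ssh2 -2.48, Emb -2.27, Ctsh -1.98 and Gpr18 -1.88. Each of these 14 had the same direction in all 4 libraries, because the ranking took only such genes.

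**Figure D4:**
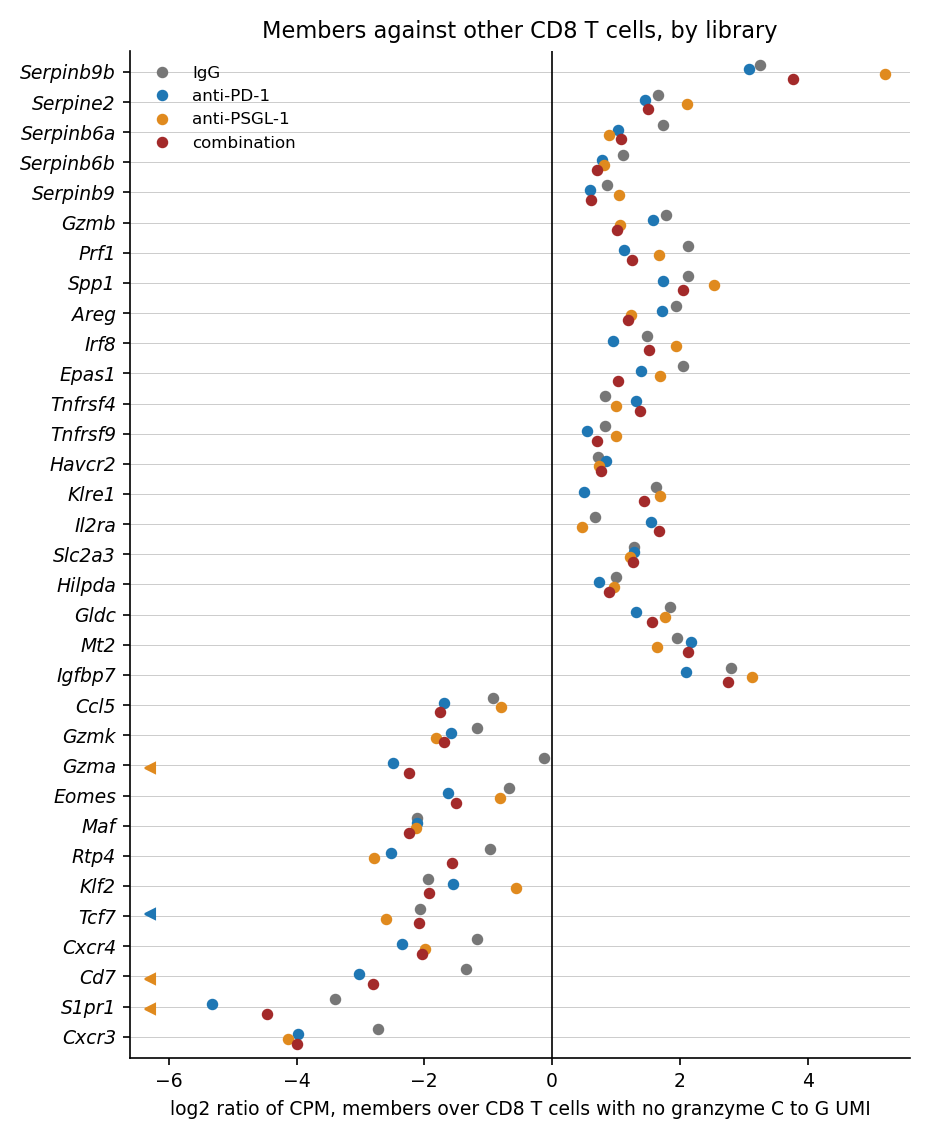
Log2 ratio of CPM in granzyme C to G cells over CD8 T cells with no granzyme C to G UMI for 33 genes, with 1 point per library; triangles at the left edge mark a library with no UMI in the granzyme C to G cells. The 21 upper genes lie right of 0 in all 4 libraries, from Serpinb9b (fitted value 3.86) down, and the 12 lower genes lie left of 0. The 33 genes were chosen with these results known, and genes that split between libraries, such as Ifng and Il7r, are not shown.

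A second comparison set was closer to the group: CD8 T cells with at least 1 UMI of Pdcd1 and of Tox and no granzyme C to G UMI (496, 278, 498 and 541 cells), which leaves out most naive-like cells. Pdcd1 and Tox were not tested here. Of 9142 genes 313 were higher (3.42%) and 337 lower (3.69%). Leaving out the combination library left 102 and 57. These comparison cells are part of the first comparison set, so the results are not independent of those above.

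The serpin, glycolysis and killer receptor lists had higher members here too. Of 9 serpins 5 were higher and none lower, with Serpinb9b at 30.1, 40.5, 22.9 and 63.9 CPM in the Pdcd1 and Tox cells (log2 fold change 3.51, SE 0.24, adjusted p = 2.0e-06). Of 26 glycolysis and hypoxia genes 12 were higher and none lower, and of 13 killer cell receptors 9 were higher and 1 lower. Gzmb had 1.26, Prf1 1.11, Spp1 1.85, Irf8 1.31 and Epas1 1.28. Ifng, at 163, 211, 174 and 232 CPM in the Pdcd1 and Tox cells, was higher in granzyme C to G cells in each library (1.19, SE 0.14). Gipc2 (2.72), Ccdc184 (2.71), Upp1 (2.70) and Igfbp7 (2.47) were the other genes with the largest positive values.

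Lower against the Pdcd1 and Tox cells were Cd7 (-2.89), Maf (-1.97), Gzmk (-1.63), Cxcr4 (-1.45) and Eomes (-1.45). Ccl5 stood at 6921, 9651, 8302 and 13854 CPM in those cells and was lower in the granzyme C to G cells in each library (-1.39, SE 0.11). Of 17 naive and progenitor genes 6 were lower and 1, Il7r (the interleukin 7 receptor, 0.94), higher, a call lost without the combination library and without anti-PD-1. Tcf7, at 22.1, 5.90, 13.7 and 8.06 CPM in the Pdcd1 and Tox cells, did not pass (-0.78, adjusted p = 0.35). Of 20 interferon genes 5 were lower, with Ifi27l2a at -1.37. Among 16 inhibitory receptors 2 were higher, Havcr2 (0.48) and Cd244 (0.68), whose calls were also lost without either of those libraries, and 2 lower, and Lag3 (-0.23, adjusted p = 0.16), Ctla4 (-0.07) and Entpd1 (0.20) did not pass.

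NK cells with 3 or more granzyme C to G UMIs gave the third comparison. They had no UMI of Cd3d, Cd3e, Cd3g, Cd8a, Cd8b1, Cd4 or Foxp3 and at least 1 of Ncr1 or Klrb1c, and numbered 21, 17, 38 and 30, which is 3.66%, 4.28%, 12.4% and 16.5% of NK cells so chosen. Of 4162 genes 220 were higher in the CD8 T cells (5.29%) and 244 lower (5.86%). Both sets were chosen by the same granzyme sum. Gzmb (0.31, adjusted p = 0.39), Prf1 (0.25, adjusted p = 0.46) and Spp1 (-0.03, adjusted p = 0.97) did not pass, and Serpinb9b was at 32.2, 338, 221 and 170 CPM in the NK cells (1.19, adjusted p = 0.051).

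Higher in the CD8 T cells were 7 of 12 inhibitory receptors and 7 of 11 costimulatory receptors. Lag3 was at 308, 331, 213 and 344 CPM against 21.5, 30.0, 35.1 and 47.7 CPM (2.95, SE 0.23) and Tox at 204, 133, 162 and 185 CPM against 42.9, 0, 24.6 and 2.98 CPM (3.54, SE 0.42). Several genes had no UMI in the 106 NK cells, so their folds are lower bounds set by a floor of 3 counts over all NK cells. Pooled over the libraries, Gldc, given as a marker, was at least 58.7-fold higher in the CD8 T cells, Themis, a T cell signalling protein, at least 29.6-fold, Cd6 at least 23.6-fold, Cd5 at least 19.0-fold and Exph5 at least 14.6-fold. Serpine2 was at 64.4, 143, 24.6 and 14.9 CPM in NK cells. Lower in the CD8 T cells were 10 of 15 killer cell receptors and none higher, with Klrb1f at -8.71 and Klra9 at -7.58. Gzma was at 1234, 2471, 3561 and 4711 CPM in the NK cells against 190, 52.8, 0 and 82.6 CPM (-5.41, SE 0.64), and Xcl1 at 3016, 1209, 1427 and 1504 CPM against 91.1, 55.9, 157 and 27.7 CPM (-4.67, SE 0.34). Car2 (-6.85), Klra8 (-6.51) and Atp1b1 (-6.36) completed the 5 most negative values.

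Gene levels also differed along the granzyme sum. Both libraries with anti-PD-1 held enough cells for this, and their CD8 T cells were grouped by sums of 0, 1 to 2, 3 to 9, 10 to 99 and 100 or more UMIs. With anti-PD-1 Gzmb was at 1317, 2047, 3632, 3000.4 and 5128 CPM across these groups, and with the combination at 1881, 2690.0, 3118, 3462 and 4568 CPM. Serpinb9b went from 31.9 to 444 CPM and from 48.1 to 976 CPM between the first and the last group. Both genes were highest in the last group of both libraries. Ccl5 went from 8946 to 2494 CPM and from 13827 to 2560 CPM, and was lowest in the last group or level with the one before it. Tcf7 had no UMI from 3 to 9 upwards with anti-PD-1 and from 10 to 99 upwards with the combination. Median depth moved with the groups, from 6435 to 13882 UMIs with anti-PD-1 and from 6870 to 16810.5 with the combination, and its part in these levels was not tested.

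**Figure D5:**
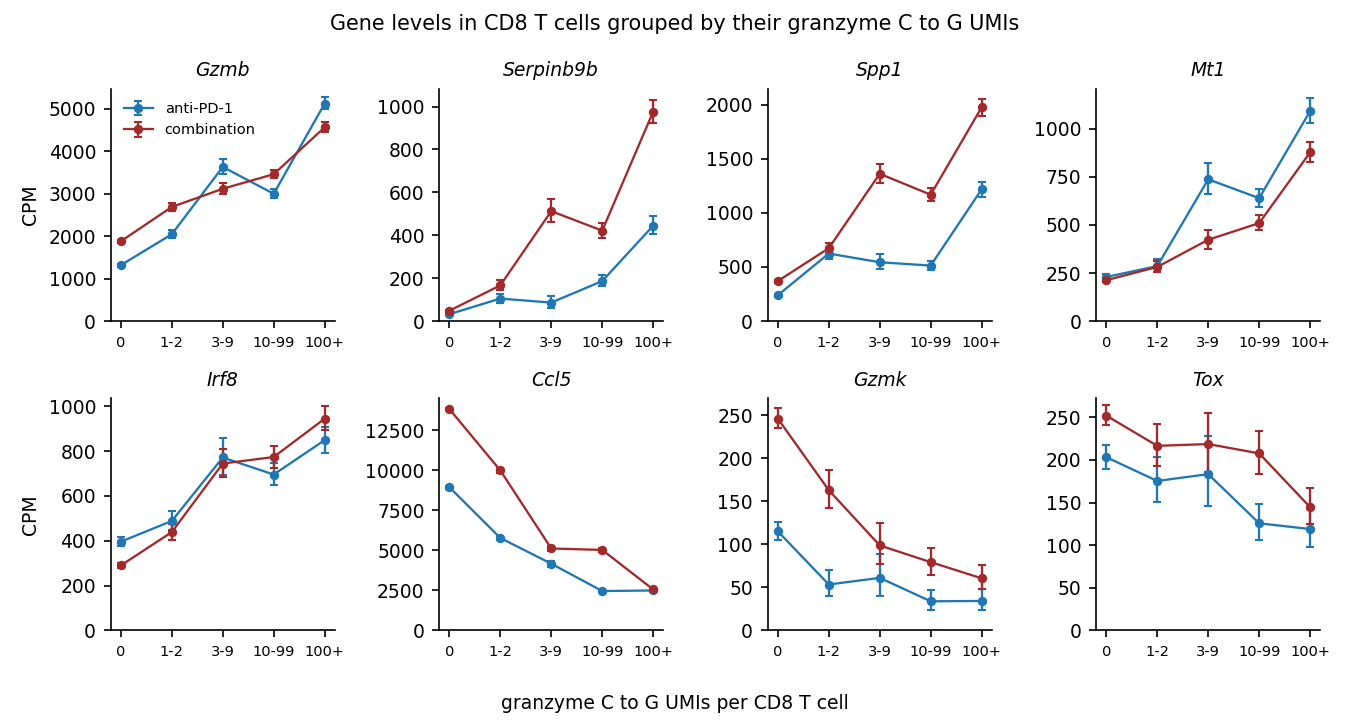
Levels (CPM with 95% Poisson intervals) of 8 genes in CD8 T cells grouped by granzyme C to G UMIs, for the anti-PD-1 (blue) and combination (red) libraries. Gzmb, Serpinb9b, Spp1, Mt1 and Irf8 are highest at 100 or more UMIs, and Ccl5, Gzmk and Tox are lower there than at 0 UMIs.

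Between treatments, the granzyme C to G cells of each library were compared as single libraries. A gene entered when one of the compared libraries had it at 50 CPM or above and was counted at a ratio of 1.5 or more, with no test possible. Against IgG, 132 of 2843 genes were higher with anti-PD-1 (4.64%) and 250 lower (8.79%). With anti-PSGL-1 266 of 2893 were higher (9.19%) and 429 lower (14.8%), and with the combination 180 of 2865 were higher (6.28%) and 236 lower (8.24%). Between the combination and anti-PD-1 libraries, the largest groups of cells, 77 of 2725 genes were higher with the combination (2.83%) and 47 lower (1.72%). Against anti-PSGL-1 it had 355 of 2830 higher (12.5%) and 263 lower (9.29%), where the 34 anti-PSGL-1 cells limit the precision. Without the cells carrying myeloid markers the counts against IgG were 178 (6.07%) and 360 (12.3%) for anti-PD-1, 251 (8.47%) and 506 (17.1%) for anti-PSGL-1 and 197 (6.66%) and 363 (12.3%) for the combination. In the same cells the combination had 70 genes higher (2.58%) and 50 lower (1.84%) than anti-PD-1, and 375 higher (13.3%) and 293 lower (10.4%) than anti-PSGL-1. The comparisons with IgG share the IgG cells.

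Serpinb9b was among the genes highest over IgG with the combination and also with anti-PSGL-1, where 1 cell held 40.4% of its UMIs. The levels in these libraries were close. With the combination it was 2.90 times that of the IgG cells (95% interval 2.35 to 3.61), and 2.68 times without the cells carrying myeloid markers. In granzyme-negative CD8 T cells the same ratio was 2.02, or 1.53 without such cells. Spp1 was 2.56 times the IgG level with the combination (2.25 to 2.93), and 2.73 times in the granzyme-negative cells. Without the cells carrying myeloid markers these were 2.10 and 2.96, and without the richest cell of each library the first was 4.47. Ccl9, a macrophage inflammatory chemokine, was at 86.2, 157, 32.9 and 338 CPM, and 116 of 223 combination cells had it. Its ratio to IgG was 3.93 (2.81 to 5.67), or 7.22 without the cells carrying myeloid markers, when 11 UMIs were left with IgG. In granzyme-negative cells the ratio was 0.886, or 3.40 without the cells carrying myeloid markers, when the IgG level was 9.87 CPM. The direction in granzyme-negative cells therefore depended on whether those cells were kept. Gzmb was 1.94 times the IgG level with anti-PD-1 (1.80 to 2.08) and 1.88 times with the combination (1.75 to 2.02). Without the cells carrying myeloid markers the ratios were 1.81 and 1.74. In granzyme-negative cells Gzmb was at 587 CPM with IgG, 1317 CPM with anti-PD-1 and 1881 CPM with the combination. The Gzmb difference was thus not limited to the granzyme C to G cells.

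S100a4, a calcium-binding protein of motile cells, was at 724, 2246, 1023 and 1124 CPM, highest with anti-PD-1 (ratio to IgG 3.1, 2.76 to 3.5). Without the cells carrying myeloid markers the ratio was 2.62. The granzyme-negative cells of that library gave 3.03, or 3.15 without such cells. Gstp1 was at 96.0, 12.1, 86.1 and 75.7 CPM, low with anti-PD-1 only, and the combination had 6.24 times its level (4.29 to 9.39). The granzyme-negative cells gave 5.73, so this difference was not limited to the granzyme C to G cells. Ifitm1, an interferon-induced membrane protein, was at 209, 224, 7.6 and 21.7 CPM, with 0.0969 times the anti-PD-1 level in the combination, and rested on 29 anti-PD-1 cells. Without the cells carrying myeloid markers the ratio was 0.0704, and the IgG level was 31.0 CPM. In the granzyme-negative cells it was 0.670, and without such cells 1.69 (1.18 to 2.48), in the opposite direction. Nrn1, neuritin, was at 113, 74.7, 63.3 and 21.4 CPM, lowest with the combination.

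The anti-PSGL-1 cells had no UMI of Gzma or of Cxcl10, an interferon-induced chemokine. Against a floor of 3 counts in the anti-PSGL-1 cells, the combination level was 10.9-fold higher for Gzma and 12.5-fold higher for Cxcl10. These folds allow for counting error only and not for the spread between cells. With the combination 32 of 223 cells had Gzma, and 1 cell held 43.8% of its UMIs. Cxcl10 was in 42 of them, with 13.4% of its UMIs in 1 cell. Areg was at 76.0 CPM there against 454 to 544 CPM elsewhere, and its level in granzyme-negative cells was 32.2 CPM against 142 to 199 CPM. Irs2, an adaptor of insulin signalling, was at 24.6, 10.6, 91.2 and 6.64 CPM and Bmyc at 49.2, 20.7, 106 and 13.3 CPM, both highest with anti-PSGL-1, in 15 and 17 of the 34 cells. The class II genes H2-Aa, at 1024, 164, 355 and 42.5 CPM, and H2-Eb1 mark antigen-presenting cells. With the cells carrying myeloid markers left out, H2-Aa was at 46.5, 34.1, 173 and 6.71 CPM, and 1 cell held 77.8% of it with anti-PSGL-1. S100a8, S100a9, Il1b and Cxcl2, genes of neutrophils and monocytes, were highest with IgG, where S100a9 was at 239 CPM with 72.2% of its UMIs in 1 cell.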

How the data were processed

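Single-cell RNA was measured in 4 libraries, 1 per treatment, so groups were taken from the treatment labels. The deposited matrices hold unnormalised UMI counts of 27998 genes in each barcode. The submitters' processing notes name Cell Ranger 3.1.0, FastQC and mm10. The kit chemistry was not given in the sources used here, nor was the read length. Cells with under 300 genes, over 10% mitochondrial UMIs or over 60000 UMIs were left out. The members, the 19 gene lists and the tests were chosen with earlier results of these data known.

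Counts were summed per library and cell set and tested with edgeR's quasi-likelihood test (TMM scaling, filterByExpr, library as block, Benjamini-Hochberg adjustment over all genes tested, threshold 0.05; edgeR 4.0.16, R 4.3.3). Because both sums of a pair come from the same library, the block is part of the design. Between libraries, CPM (UMIs per 1000000) carry exact Poisson intervals, shares exact Clopper-Pearson intervals and ratios exact conditional intervals, all at 95%. PCR copies are collapsed by UMIs, and intervals cover counting error only. Where a set had no UMI, a floor of 3 counts was used for the fold. In simulated counts for the first comparison (9467 genes), the test recovered 82.8% of log2 1 changes and 100% of log2 2 changes. It called 7 unchanged genes. The second and the third comparison recovered 80.2% and 75.7% at log2 1. Every simulated gene had the same dispersion and, apart from the set change, the same proportion in all sums. Changed genes were drawn only from those above a minimum expected count. The real libraries differ in treatment and the real genes in spread, so these rates need not hold for them.

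Scrublet in scanpy 1.11.5 scored doublets; its own threshold called 1, 84, 0 and 42 cells of 9465, 5238, 6869 and 4382 and had not worked in the libraries with 1 and 0 calls, so all cells were kept and an alternative removed the top 0.8% per 1000 cells. Other alternatives were DESeq2 1.42.0 and its size factors, no block, no filter, cells of 5000 to 20000 UMIs, other granzyme thresholds, leaving out each library and, chosen after the data were seen, leaving out cells with 5 or more myeloid marker UMIs or the richest cell of a gene. Named genes are those of the rule, Serpine2 and Gldc, the 10 highest and 10 lowest fold changes at 50 CPM or more and of 1 direction in all libraries (5 and 5 for the other comparisons of cell sets), the 5 and 5 per pair of libraries by the interval bound nearest to 1, and up to 4 and 4 of each list by adjusted p; receptor segments, ribosomal, mitochondrial and sex-linked marker genes were left out. List genes beyond this, and the names between libraries without myeloid-marker cells, were chosen after their values were seen. Sequences come from RefSeq tables on GRCm38.p6 and positions and transcripts from GENCODE on GRCm38. Promoters were aligned with Biopython 1.88. Values of a few named or marker genes are not reported here. Python 3.11.15, numpy 2.4.6, scipy 1.17.1, pandas 2.3.3 and matplotlib 3.10.9 were used.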

Additional observations from a re-analysis of the deposited data

Results flagged for a closer look

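Dividing CD8 T cells, with 3 or more UMIs of Mki67 and Top2a together, lie outside the group described and carried the same granzymes. Of these cells 39.9% held 3 or more granzyme C to G UMIs with anti-PD-1 (167 of 419) and 36.7% with the combination (215 of 586), above 4.70% in the IgG control (17 of 362). With anti-PSGL-1 the share was 4.93% (20 of 406).

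For 7 genes the granzyme C to G cells stood above the granzyme-negative CD8 T cells by 1.5-fold or more in some libraries and below them by as much in others, each with an interval that excludes a ratio of 1. The difference between libraries was not tested, and chance was not assessed. For Ccl4, Ier3 and Hspa1b a direction rests on 1 cell or on the cells carrying myeloid markers. Il7r, the interleukin 7 receptor, had a ratio of 1.55 with the combination and of 0.547 with IgG, 0.541 after anti-PD-1 and 0.0794 after anti-PSGL-1. Its level in the granzyme C to G cells was 61.6, 54.0, 7.6 and 60.6 CPM. The granzyme-negative cells had 112, 99.8, 95.7 and 39.2 CPM, lowest with the combination. The anti-PSGL-1 ratio rests on 3 UMIs. Ifng had 3.34, 1.64 and 2.18 with IgG, anti-PSGL-1 and the combination and 0.433 with anti-PD-1, where the granzyme-negative cells were at 931 CPM against 170 to 223 CPM elsewhere. In the IgG cells 60.3% of its UMIs were in 1 cell, without which the ratio was 1.36, and without the richest cell that of anti-PSGL-1 was 1.25. Leaving out the richest cell gave 2.04 with the combination and 0.398 with anti-PD-1. Leaving out the cells carrying myeloid markers gave 2.12 and 0.363, so both directions remained. Ccl4, a chemokine of activated T cells, had 1.5 with IgG and 0.255 with anti-PSGL-1. The IgG ratio was 1.04 without the richest cell and 1.02 without the cells carrying myeloid markers. Ier3, an immediate early gene, had 1.66 with IgG and below 1 elsewhere, 0.472 with anti-PD-1 among them and 0.459 after anti-PSGL-1. Without the cells carrying myeloid markers these turned to 0.653, 1.68 and 2.16. The IgG value then rested on 4 UMIs, with an interval of 0.175 to 1.71 that includes 1, and the anti-PSGL-1 value on 15 UMIs. Phgdh, the first enzyme of serine synthesis, had 1.70 after anti-PD-1 and 0.478 after anti-PSGL-1. Cd6, a T cell surface receptor, had 1.51 with anti-PSGL-1 and 0.597 with IgG, and the heat shock gene Hspa1b 1.89 and 0.417. Without the richest anti-PSGL-1 cell Cd6 had 1.48 and Hspa1b, with 36.7% of its UMIs in that cell, 1.23. Without the richest cell Il7r had 1.45 with the combination, and Phgdh had 1.64 after anti-PD-1 and 0.402 after anti-PSGL-1.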

How the results depend on the processing

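Without cells carrying myeloid markers H2-Aa turned from 0.346 to 3.72 times the IgG level with anti-PSGL-1. Ier3 in granzyme C to G cells over granzyme-negative cells turned to 0.653 with IgG, 1.68 after anti-PD-1 and 2.16 after anti-PSGL-1. The interval of its IgG value, from 4 UMIs, includes 1. Genes under 50 CPM in an alternative were not compared there. Shares moved with the threshold: IgG 3.13% at 5 UMIs and 2.20% at 10, anti-PD-1 18.1% at 10, combination 15.2% at 5 and 13.1% at 10; IgG was 6.65% thinned and 2.89% without cells carrying myeloid markers. Both cell sets come from the same libraries; without the replicate block, and so without this pairing, the first comparison gave 475 higher and 731 lower genes, the second 139 and 149 and the third 222 and 232. DESeq2 gave 530 and 656 in the first and 170 lower in the second. Cells of 5000 to 20000 UMIs gave 363 and 616, 206 and 189, and 149 lower in the third. Leaving out 1 library at a time gave 311 to 881 higher and 514 to 1183 lower, 102 to 350 and 57 to 456, and 158 to 207 and 154 to 229; the lowest counts were without the combination. In the second comparison lower genes outnumbered higher ones, and this turned under DESeq2 (210 higher), in cells of 5000 to 20000 UMIs, without the combination (102 against 57) and without anti-PD-1 (179 against 142). The cause of these changes was not tested, except that fewer libraries and cells enter.

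Between libraries a minimum of 20 CPM gave 472 higher and 763 lower for anti-PD-1 against IgG, 845 and 1071 for anti-PSGL-1, 508 and 754 for the combination, 180 and 131 for the combination against anti-PD-1 and 798 and 742 against anti-PSGL-1, since more genes enter. With each cell weighing the same, 280 genes were higher with anti-PD-1 and 299 with the combination than with IgG; with 10 or more UMIs 227 were higher with anti-PD-1; without cells carrying myeloid markers 363 were lower with the combination. Of 187 named genes called in the first comparison, 150 kept the call under DESeq2, 113 without the block, 135 of 185 in cells of 5000 to 20000 UMIs, 128 without the combination, 135 without anti-PD-1, 166 without anti-PSGL-1, 179 without IgG and 165 of 180 without cells carrying myeloid markers. In the second comparison 48 of 94 kept it without the combination. Between libraries 10 of 44 named ratios left their interval in cells of 5000 to 20000 UMIs, 8 of 27 without cells carrying myeloid markers, 7 of 45 with equal cell weight and 7 of 33 with likely doublets removed. The 34 anti-PSGL-1 cells and 394757 UMIs limit every level in that library.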

Other observations

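Of all granzyme C to G UMIs in kept cells, the granzyme C to G cells held 35.7%, 53.7%, 26.7% and 40.6% with IgG first, then anti-PD-1, then anti-PSGL-1 and the combination last. CD8 T cells below the threshold held 0.210% to 1.91%, macrophages 0.0993% to 0.744%, and NK cells 7.44%, 2.59%, 24.8% and 6.07%. Outside the non-dividing CD8 T cells, NK cells and macrophages included, 82, 216, 98 and 304 kept cells held 3 or more granzyme C to G UMIs, of which 30, 178, 34 and 241 also had 3 or more UMIs of Mki67 and Top2a together.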
